A study of Mus musculus with 20 samples.

Results

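Phenobarbital in non-tumour liver was examined by comparing 5 arrays of non-tumour liver from mice fed phenobarbital with 5 arrays of non-tumour liver from mice without it. The members were chosen by their labels alone, and these 10 arrays are part of 20 in the series, the other 10 being tumours. Phenobarbital is a barbiturate sedative. In hepatocytes it blocks epidermal growth factor receptor signalling, which releases the nuclear receptor CAR (gene Nr1i3) into the nucleus, where it switches on genes for drug-metabolising enzymes and transporters. In rodents, long exposure enlarges the liver and promotes hepatocellular tumours, and Cyp2b10 is the classical marker of the response in mice.

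All animals were male C57BL/6 mice with a conditional APCko allele, which removes a brake on Wnt signalling once it is triggered. Per the protocols of the samples, each mouse received 0.75 mg of tamoxifen at the age of 6 weeks, and the diets began 1 week later. The untreated group (H2O_NT in the labels) was kept without phenobarbital for 9 months, on standard chow per the protocol, and the treated group (PB_NT) ate chow with 0.05% phenobarbital for 9 months. Both groups carried the allele and received the same injection, so neither is wild-type liver. The design text of the series names the carcinogen DEN, which the protocols of the samples do not mention, and this was not settled. The Cre driver that would respond to tamoxifen, and the share of hepatocytes in which the allele was lost, are not given in the sources used here. Whether each sample stands for its own animal is not stated, so a p-value here describes only how far these particular samples scatter, which may be technical.

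Most marker genes went with the tissue label. Alb, the gene of serum albumin, read between 14.89 and 15.03 on the log2 scale of the arrays in all 10, and Ttr, encoding the carrier transthyretin, between 14.48 and 14.61. Wif1 and Bex1, genes that read between 13.65 and 13.89 in the carcinomas of the series, read between 3.13 and 3.69 in the 10 non-tumour arrays. Ptn, also listed as a carcinoma marker, read 9.157 to 10.269 in carcinomas, 6.177 to 6.467 in untreated and 6.005 to 6.559 in treated arrays. Nkd1, listed likewise, overlapped, with 6.402 to 7.012 in carcinomas, 5.567 to 6.263 in untreated and 6.033 to 6.49 in treated arrays. Adipoq of fat cells (3.50 to 3.90) and Ctrb1 of pancreatic acinar cells (5.49 to 5.81) were low throughout. Cela1, another gene listed as a pancreas marker, was not low, at 9.225 to 10.755 in untreated and 9.511 to 9.809 in treated arrays. Apc itself read 8.64 to 8.97 without and 8.43 to 8.71 with phenobarbital and was not past the test (adjusted p = 0.165 in limma, log2 difference −0.30, SE 0.09). Where its 4 probe sets lie relative to the deleted part was not analysed here, so they check nothing about the knockout.

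Values were log2 expression summaries, 1 per probe set, for 18193 genes with a single gene symbol. The medians of the 10 arrays lay between 5.54 and 5.60. Correlations across genes were 0.9935 to 0.9952 among treated arrays, 0.9861 to 0.9938 among untreated arrays and 0.985 to 0.9919 between groups; genes are not independent replicates. The main axis of variation (29.5% of the variance) separated the groups. The next axis (20.6%) set untreated arrays 3 and 4 apart from untreated arrays 1, 2 and 5. Those 2 arrays read higher for the proliferation marker Mki67 (6.98 and 6.86, against 5.04 to 5.38 in the other untreated arrays) and lower for glutamine synthetase, Glul (12.39 and 12.25, against 13.13 to 13.37). Where leaving them out ended a call of a named gene or changed what a list below shows, the value without them is given. In such bulk tissue, fewer cells of a type and less RNA per cell cannot be told apart.

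Phenobarbital raised a compact set of genes very strongly and lowered fewer genes by less. Of the 18193 genes, 215 (1.18%) passed the test, limma with Benjamini-Hochberg adjustment over all 34945 probe sets with a single symbol at a threshold of 0.05. With phenobarbital, 156 genes (0.857%) were higher and 59 (0.324%) were lower. Counts of called genes in each list below stand against these shares of 0.857% higher and 0.324% lower. The change was at least 2-fold for 65 genes (0.357%), of which 54 rose and 11 fell. The groups of arrays did not overlap for 209 of the 215 genes, against 841 genes (4.62%) over the whole table, 434 of them (2.39%) higher and 407 (2.24%) lower. Overlap and test use the same values, so this is no separate evidence for the called genes. The total fell whichever single array was left out, to between 111 and 197 genes. It was 111, 119, 137 and 138 without treated arrays 1, 2, 3 and 4 in turn, and 140 without untreated array 1. Fewer arrays alone can lower the count, so these values do not show that particular arrays drive it. Without untreated arrays 3 and 4 the count was 270, and 148 of these were among the 215. After centring each array on its median, 129 genes were higher and 81 lower, a share of 61.4% higher in place of 72.6%.

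**Figure D1:**
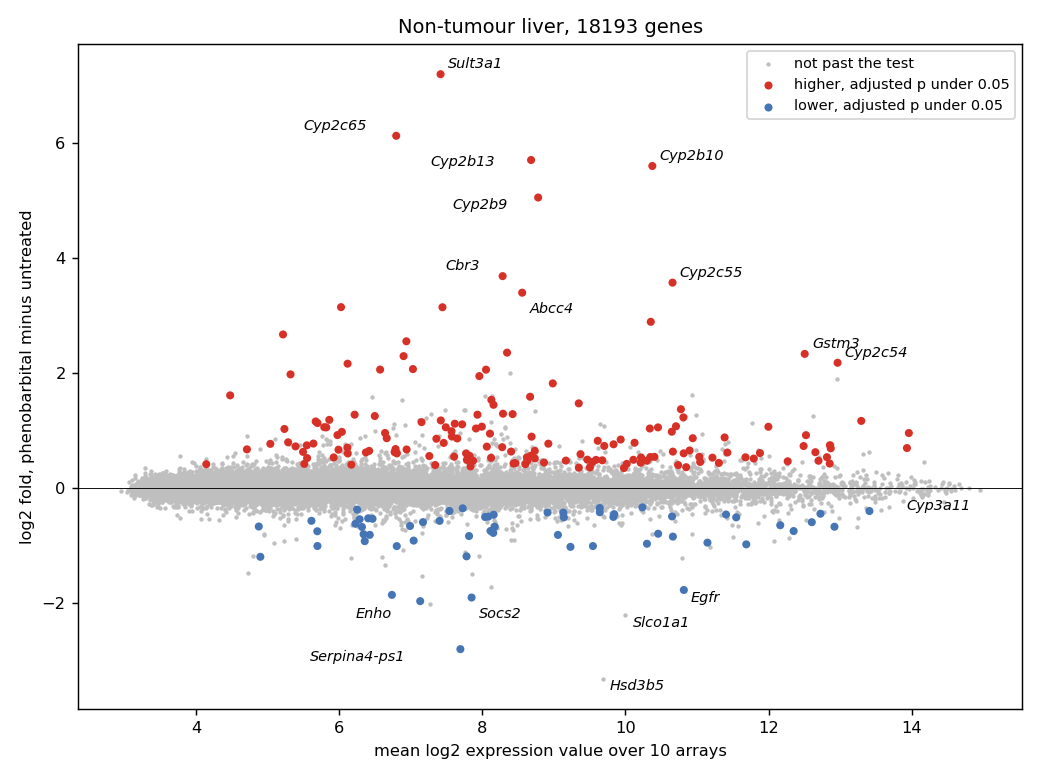
Log2 fold (phenobarbital minus untreated, y axis) against the mean log2 value over the 10 arrays (x axis) for 18193 genes, with the 156 genes that passed the test higher in red and the 59 lower in blue. The rises reach 7.19 (Sult3a1), while the largest fall past the test is −2.80 (Serpina4-ps1) and the lower Hsd3b5 is not past it.

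Cytochrome P450 genes of subfamilies 2b and 2c gave 5 of the 15 largest rises: Cyp2c65, Cyp2b13, Cyp2b10, Cyp2b9 and Cyp2c55. These enzymes oxidise drugs, steroids and fatty acids, and the 2b genes are the classical targets of CAR. Of 17 measured P450 genes listed as targets of CAR or the related receptor PXR, 9 passed the test, all higher, against 0.857% of all genes, and the median log2 difference was 0.95 (0.001 over all genes). When untreated arrays 3 and 4 were left out, 10 passed and the median was 0.56. All 17 lay above 0. This list, like all lists below, was drawn up with results of these data known, so its direction is not independent evidence.

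Cyp2b10 read 6.66, 5.94, 8.14, 9.19 and 7.95 in untreated arrays 1 to 5 and 13.11, 13.14, 13.33, 13.13 and 13.15 in treated arrays 1 to 5. Untreated livers thus differed widely from each other, with arrays 3 and 4 the highest, while the treated arrays lay close together at the top. The log2 difference was 5.60 (SE 0.46, limma adjusted p = 6.63e-05), a 48.4-fold rise. Its 3 probe sets gave 5.87, 5.60 and 5.62.

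Cyp2b13 read 5.96, 6.05, 5.68, 5.59 and 5.88 in untreated and 11.88, 11.62, 11.78, 11.44 and 10.93 in treated arrays 1 to 5. Cyp2b9 read 6.45, 7.81, 5.84, 5.27 and 5.91 in untreated and 11.47, 11.30, 11.63, 11.30 and 10.82 in treated arrays. For neither gene did the groups overlap, treated array 5 was the lowest of its group for both, and untreated array 2 stood above the rest for Cyp2b9. The log2 differences were 5.70 (SE 0.16, limma adjusted p = 9.75e-10) for Cyp2b13 and 5.05 (SE 0.37, adjusted p = 2.2e-05) for Cyp2b9. Both are known as genes more active in female than in male mouse liver.

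Cyp2b10, Cyp2b13 and Cyp2b9 are neighbours on chromosome 7 with no protein-coding gene of the reference between them, and their treated values lay between 10.82 and 13.33. Their promoters are shown so that the likeness of these stretches can be seen. Each runs from 250 bases before to 50 bases after the start of transcription, 5′ to 3′ on the plus strand of build GRCm38.p6, from RefSeq: chr7:25897408-25897707 for Cyp2b10, chr7:26061245-26061544 for Cyp2b13 and chr7:26173159-26173458 for Cyp2b9. Capitals mark the bases that differ between Cyp2b13 and Cyp2b9.
Cyp2b10: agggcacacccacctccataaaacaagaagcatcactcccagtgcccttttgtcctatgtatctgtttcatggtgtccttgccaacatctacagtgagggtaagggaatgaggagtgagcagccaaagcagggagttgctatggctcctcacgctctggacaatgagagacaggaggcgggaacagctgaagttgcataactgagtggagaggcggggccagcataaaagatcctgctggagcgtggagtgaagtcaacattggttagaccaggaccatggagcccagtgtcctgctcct
Cyp2b13: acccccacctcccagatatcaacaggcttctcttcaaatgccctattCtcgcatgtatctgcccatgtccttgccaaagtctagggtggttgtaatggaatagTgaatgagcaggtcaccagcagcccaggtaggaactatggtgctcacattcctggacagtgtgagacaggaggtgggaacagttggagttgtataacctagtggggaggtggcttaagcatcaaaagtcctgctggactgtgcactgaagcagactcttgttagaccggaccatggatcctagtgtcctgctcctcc
Cyp2b9: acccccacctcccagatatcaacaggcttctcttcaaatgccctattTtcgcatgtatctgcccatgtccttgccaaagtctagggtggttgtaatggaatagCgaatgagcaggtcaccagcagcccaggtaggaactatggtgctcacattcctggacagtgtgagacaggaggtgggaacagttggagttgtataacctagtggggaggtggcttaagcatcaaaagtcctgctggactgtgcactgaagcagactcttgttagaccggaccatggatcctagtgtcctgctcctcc
The promoters of Cyp2b13 and Cyp2b9 differed at 2 of 300 bases (99.3% identity), and Cyp2b10 matched each of them at 223 of 289 aligned bases (77.2%). Most of each window lies before the start of transcription, so these shares do not show how alike the RNAs are. Related genes can share labelled RNA on an array, and cross-binding between the probe sets of these copies was not tested. Cyp2b9 and Cyp2b13 differed in their untreated values, with Cyp2b9 ranging from 5.27 to 7.81 and Cyp2b13 from 5.59 to 6.05.

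In the 2c subfamily, Cyp2c65 went from near the bottom of the scale to a high level. It read 3.83, 3.82, 3.52, 3.73 and 3.78 in untreated and 9.93, 10.17, 9.78, 9.68 and 9.72 in treated arrays 1 to 5. The spread within each group was small beside the difference of 6.12 (SE 0.10, limma adjusted p = 3.49e-12), the smallest adjusted p of all genes. Cyp2c55, whose enzyme makes hydroxylated products of arachidonic acid, read 8.39, 7.92, 9.62, 9.80 and 8.64 in untreated and 12.28, 12.44, 12.87, 12.39 and 12.23 in treated arrays. Untreated arrays 3 and 4 were again the highest of their group, and the difference was 3.57 (SE 0.31, adjusted p = 9.84e-05).

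Cyp2c54 and Cyp2c50 showed the reverse order among untreated arrays. Cyp2c54 read 12.70, 12.59, 10.43, 10.97 and 12.69 in untreated and 13.95 to 14.12 in treated arrays, so that arrays 3 and 4 were the lowest. The log2 difference of 2.17 (SE 0.39, limma adjusted p = 0.0225) fell to 1.39 without untreated arrays 3 and 4 and stayed past the test (adjusted p = 1.22e-05). It lost the test without treated array 1, 2, 3 or 4 (highest adjusted p = 0.0647). Cyp2c50 rose by 0.95 (adjusted p = 0.0483), a call lost without 7 of the 10 arrays in turn (highest adjusted p = 0.115). Without untreated arrays 3 and 4 its difference was 0.56 (adjusted p = 0.00506). Cyp2c29, a major P450 of mouse liver, rose by 0.69 (SE 0.10, adjusted p = 0.00529), from 13.28 to 13.83 in untreated to 14.21 to 14.34 in treated arrays.

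Differences were small in the 3a subfamily, which metabolises a broad range of drugs. Cyp3a13 rose by 0.43 (SE 0.07, limma adjusted p = 0.0111), from 11.001 to 11.18 to 11.41 to 11.60. Cyp3a11, the classical PXR target, read 14.38 to 14.55 without and 14.48 to 14.59 with phenobarbital (difference 0.07, adjusted p = 0.719). These values lie close to the highest value on the 10 arrays, 15.09. The 8 P450 genes of the list that did not pass had log2 differences between 0.02 and 1.89.

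Fewer of the other P450 genes passed. Of 34 in a separate list, 2 rose and 1 fell, with a median of 0.07. Of the 34, 3 rose and 3 fell without untreated arrays 3 and 4, with a median of −0.05. Cyp1a1, a classical target of the aryl hydrocarbon receptor, rose by 0.74 (SE 0.11, limma adjusted p = 0.0085) but stayed dim, at 5.69 to 6.07 in treated arrays. Cyp2g1 rose by 0.97 (adjusted p = 0.00512). Cyp2u1, which hydroxylates fatty acids, fell by 0.78 (adjusted p = 0.0371), a call lost without 7 of the 10 arrays in turn (highest adjusted p = 0.0989).

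Cyp1a2, which metabolises caffeine and aryl amines around the central vein, read 12.65, 12.92, 10.71, 11.57 and 12.14 in untreated and 13.17, 13.21, 13.29, 13.40 and 13.15 in treated arrays. The groups did not overlap, and untreated arrays 3 and 4 were the lowest. The gene was not past the test (log2 difference 1.25, SE 0.32, limma adjusted p = 0.11). It passed without untreated array 2 (adjusted p = 0.0464) and without no other single array (highest adjusted p = 0.216). Without untreated arrays 3 and 4 together the difference was 0.67 and did not pass (adjusted p = 0.0731).

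**Figure D2:**
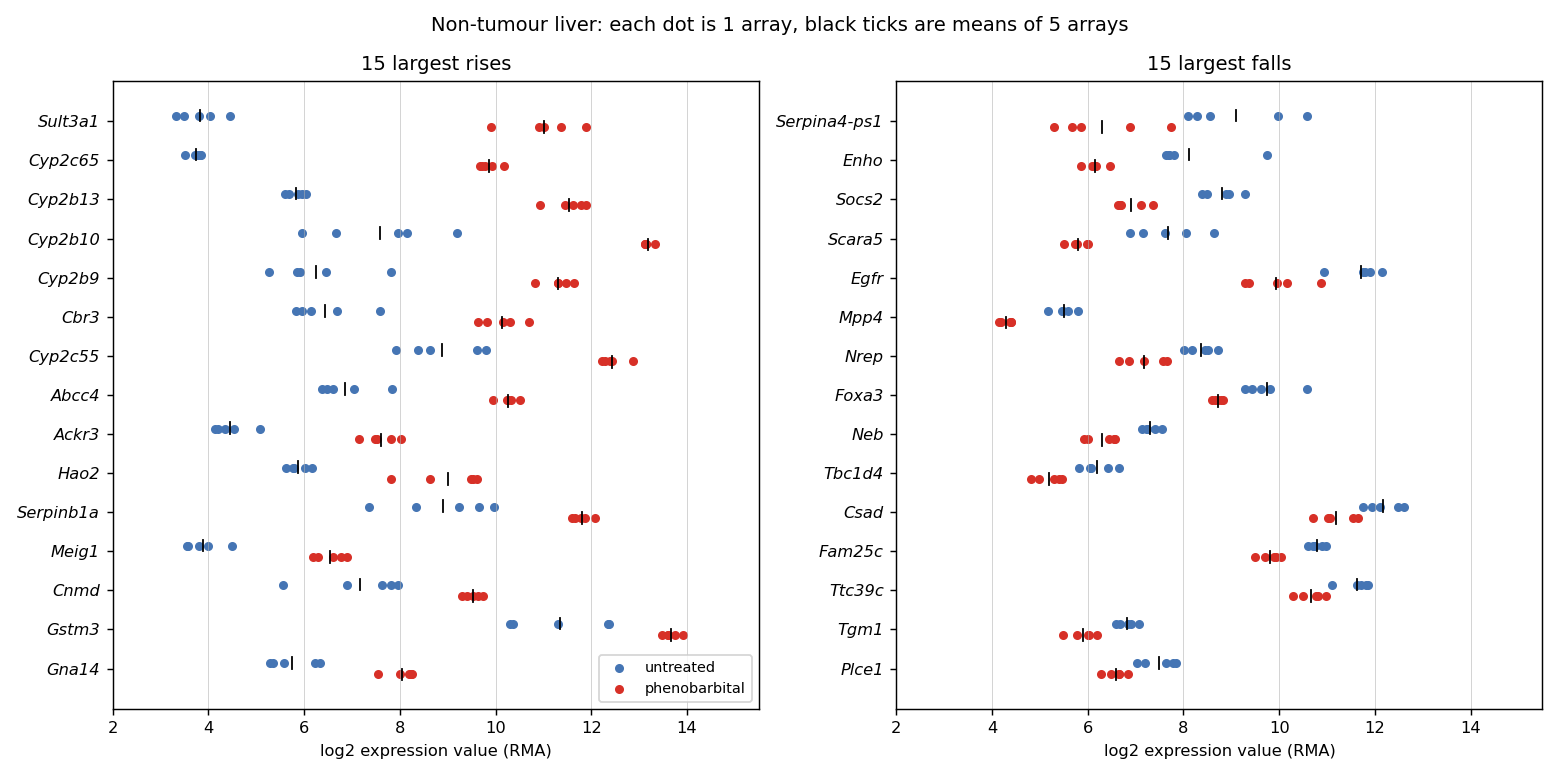
Log2 expression value (x axis) in each of the 5 untreated (blue) and 5 phenobarbital-treated (red) arrays, with group means as black ticks, for the 15 largest rises and 15 largest falls past the test whose arrays did not overlap. Cyp2b10 is spread from 5.94 to 9.19 in untreated and packed between 13.11 and 13.33 in treated arrays.

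The receptors for phenobarbital-like drugs did not pass the test. Nr1i3, the gene of CAR, read 9.75, 9.85, 8.99, 8.38 and 9.93 in untreated and 9.997, 9.57, 9.48, 9.57 and 9.51 in treated arrays, so the groups overlapped (difference 0.24, limma adjusted p = 0.756; −0.22 without untreated arrays 3 and 4). Nr1i2, the gene of PXR, did not pass either (−0.16, adjusted p = 0.654). The receptor gene that did pass was Ahr, encoding the aryl hydrocarbon receptor, at 10.13 to 10.59 in untreated and 10.87 to 11.07 in treated arrays (0.63, SE 0.09, adjusted p = 0.00535). Of 31 genes for nuclear receptors and regulators of CAR, Ahr rose and Egfr and Foxa3 fell, and the median was −0.02.

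Alas1, the rate-limiting enzyme of haem synthesis that supplies P450 proteins, read 12.27, 10.77, 10.92, 11.37 and 10.64 in untreated and 12.21, 12.24, 12.88, 12.49 and 11.83 in treated arrays. Untreated array 1 lay among the treated arrays, and the gene was not past the test (1.14, SE 0.28, limma adjusted p = 0.094). It passed without that array (adjusted p = 0.00738) and without no other single array (highest adjusted p = 0.206). Ephx1, the microsomal epoxide hydrolase that opens reactive epoxides made by P450 enzymes, rose by 0.62 (SE 0.08, adjusted p = 0.00328). It was the single called gene among 19 P450 support genes.

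Conjugating enzymes, which attach a soluble group to a drug or steroid so that it can be excreted, gave the largest rise of all. Sult3a1, a sulfotransferase that is also female-biased, read 4.03, 3.49, 3.81, 3.32 and 4.45 in untreated and 11.88, 11.002, 11.36, 10.91 and 9.90 in treated arrays 1 to 5. All untreated arrays were near the bottom of the scale and treated array 5 was the lowest treated one. The log2 difference of 7.19 (SE 0.31, limma adjusted p = 1.26e-07) is a 146-fold rise. Of 14 sulfotransferase genes, 4 rose and none fell (median 0.16; 3 rose and the median was 0.05 without untreated arrays 3 and 4). Sult1c2 rose by 1.05 (adjusted p = 0.0111). Sult1e1, the oestrogen sulfotransferase, rose by 0.79 and Sult1d1 by 0.51, and these calls were lost without 7 and 8 of the 10 arrays in turn (highest adjusted p = 0.0858 and 0.11). When untreated arrays 3 and 4 were left out, Sult1d1 was not past the test (adjusted p = 0.108).

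Of 30 genes for glutathione transferases and glutathione metabolism, 8 rose and none fell (median 0.24; 10 rose without untreated arrays 3 and 4). Gstm3 rose most, by 2.33 (SE 0.37, limma adjusted p = 0.0103). It read 10.30, 10.36, 12.35, 12.37 and 11.30 in untreated and 13.60, 13.60, 13.92, 13.74 and 13.48 in treated arrays, and untreated arrays 3 and 4 were again nearest to the treated group. Gstt3 read 9.88 to 10.31 in untreated and 11.32 to 11.66 in treated arrays (1.37, SE 0.10, adjusted p = 2.8e-05). Gstm2, Gstm1 and Gstm4 rose by 1.23, 1.16 and 1.05, with adjusted p between 0.000158 and 0.000391. Gstm1, one of the most abundant glutathione transferases in mouse liver, went from 12.41 to 12.92 in untreated to 13.71 to 13.94 in treated arrays. Gstt1 rose by 0.53 (adjusted p = 0.00293).

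The glucuronidation and ester hydrolysis genes that passed the test rose by less than 2-fold. Of 13 glucuronosyltransferase genes, 3 rose (median 0.22; 0.11 without untreated arrays 3 and 4): Ugt2b35 by 0.74 (limma adjusted p = 0.0123), Ugt2b34 by 0.69 (adjusted p = 0.00876) and Ugdh, which makes the sugar donor UDP-glucuronate, by 0.47 (adjusted p = 0.0197). The call of Ugdh was lost without treated array 1, 2 or 4 (highest adjusted p = 0.062). Ugt2b38 had the largest difference of that list, −2.02, and was not past the test (SE 0.59, adjusted p = 0.168). Of 16 carboxylesterase and hydrolase genes, 3 rose (median 0.20; 0.12 without untreated arrays 3 and 4), Ces2a by 0.73 (SE 0.09, adjusted p = 0.00218), Ces2g by 0.51 (adjusted p = 0.0154) and Ephx1. Ces2a, a carboxylesterase, went from 11.89 to 12.29 in untreated to 12.67 to 12.94 in treated arrays. Ces2g lost the test without treated array 1 (adjusted p = 0.0541) and without untreated arrays 3 and 4 (adjusted p = 0.0621).

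Of 24 aldo-keto and carbonyl reductase genes, 2 rose and 1 fell (median 0.04), and Cbr3 rose most. It encodes a carbonyl reductase and read 5.84, 6.68, 7.59, 6.14 and 5.96 in untreated and 10.31, 9.62, 10.71, 10.16 and 9.82 in treated arrays. Untreated array 3 was the highest of its group but lay well below the treated arrays, and the difference was 3.68 (SE 0.30, limma adjusted p = 6.63e-05). Its neighbour Cbr1 rose by 0.86 (adjusted p = 0.0166), a call lost without treated array 1 or 3 (highest adjusted p = 0.0546). Hsd17b6, a male-biased steroid dehydrogenase, fell by 1.01 (adjusted p = 0.0455), and this call was lost without 8 of the 10 arrays in turn and without untreated arrays 3 and 4 (adjusted p = 0.131).

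The pump Abcc4, which exports bile acids and conjugates into the blood, read 6.47, 6.37, 7.83, 7.04 and 6.60 in untreated and 10.32, 9.95, 10.24, 10.50 and 10.26 in treated arrays. The treated arrays were tightly grouped, the untreated ones again highest in arrays 3 and 4, and the difference was 3.39 (SE 0.23, limma adjusted p = 1.44e-05), a 10.5-fold rise. Abcc3, a pump of the same hepatocyte face, rose by 0.88 (adjusted p = 0.00867). These were the 2 called genes among 19 efflux transporters (median 0.03; 3 rose without untreated arrays 3 and 4). Abcc2, which pumps conjugates into bile, was just outside the threshold (0.49, adjusted p = 0.052) although its arrays did not overlap.

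Of 16 uptake transporter genes, Slc22a27 alone passed. It read 5.57, 4.73, 6.36, 4.96 and 6.10 in untreated and 7.63, 7.44, 8.39, 7.47 and 7.06 in treated arrays (2.06, SE 0.31, limma adjusted p = 0.0076). It is measured by a probe set of the kind that can bind related transcripts, as is Slc22a29 (1.44, adjusted p = 0.0325), and cross-binding was not tested. Slc22a26, the third gene of that group, has 2 probe sets whose names do not mark that kind. The chosen one rose by 1.27 (SE 0.12, adjusted p = 0.000158) and the other by 2.335 (adjusted p = 0.000326). Slc22a29 lost the test without 7 of the 10 arrays in turn and without untreated arrays 3 and 4 (adjusted p = 0.0746).

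Genes known as targets of NRF2, the regulator of the response to electrophiles and oxidants, rose in part. Of 20 measured, 9 passed the test, all higher, with a median of 0.46 (10 and 0.59 without untreated arrays 3 and 4), and 7 of the 9 (Cbr3, Abcc4, Gstm3, Gstm1, Abcc3, Ephx1 and Ugdh) are also described with drug metabolism or transport above. Nqo1, a quinone reductase, read 6.83, 7.18, 7.98, 7.57 and 7.41 in untreated and 8.85, 8.56, 8.33, 8.43 and 7.96 in treated arrays. The groups touched at untreated array 3 and treated array 5, the difference was 1.03 (SE 0.20, limma adjusted p = 0.0323), and the call was lost without 8 of the 10 arrays in turn (highest adjusted p = 0.0874). Srxn1, which repairs oxidised peroxiredoxins, rose by 0.59 (adjusted p = 0.0276) and lost the test without 7 of the 10 arrays in turn (highest adjusted p = 0.0764). The 11 others of the list had differences between −0.03 and 0.54. Of 9 AHR target genes, Cyp1a1 and Nqo1 rose. Of 26 PPAR alpha targets, none passed (limma; 4 had an unadjusted p under 0.05; median 0.01, differences between −0.59 and 1.62; 1 rose without untreated arrays 3 and 4).

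Some of the called genes were neighbours. Among 207 called genes placed on the RefSeq gene order of GRCm38.p6, 28 pairs had at most 2 protein-coding genes between them, and both genes rose in 25, both fell in 2 and they went opposite ways in 1. The share of such pairs among genes at large was not computed. The longest run was Gstm6, Gstm3, Gstm2, Gstm1 and Gstm4, with log2 differences of 0.47, 2.33, 1.23, 1.16 and 1.05. Cyp2c55 and Cyp2c65 lay side by side, as did Cyp2c54 and Cyp2c50, Cbr1 and Cbr3, Gstt3 and Gstt1, and Sult1d1 and Sult1e1. Each of these pairs belongs to 1 gene family, and sharing of RNA between their probe sets was not tested. Next to Sult3a1 lies a gene of another family, Rsph4a of the cilium spoke, which read 3.97, 3.99, 3.56, 3.62 and 3.22 in untreated and 5.29, 4.94, 5.58, 5.09 and 5.50 in treated arrays (1.61, SE 0.16, limma adjusted p = 0.000306). It was dim in both groups but did not overlap. The 1 pair in opposite directions was that of the aldehyde oxidases Aox1 (0.60, adjusted p = 0.00535) and Aox3 (−0.65, adjusted p = 0.0354), and the call of Aox3 was lost without 7 of the 10 arrays in turn (highest adjusted p = 0.0971). Gstm6 lost the test without 9 of the 10 arrays in turn (highest adjusted p = 0.112).

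Short motifs were counted in the promoter windows of the called genes and of all genes. A match is a description of letters only, and both strands were searched. A RefSeq promoter was at hand for 124 of the genes that rose, 43 of those that fell and 14452 measured genes in all. A direct repeat of nuclear receptor half-sites of the kind CAR binds occurred in none of the 124 windows and in 18 of all (0.125%). The core of the antioxidant response element, TGACNNNGC, occurred in 17.7% of the windows of genes that rose and 16.2% of all. The STAT5 motif TTCNNNGAA occurred in 5.65% of genes that rose, 11.6% of genes that fell and 8.57% of all. These windows hold no distal enhancer, and matches of different motifs could overlap. No test was run on these shares.

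Several of the largest rises lay outside drug metabolism. Ackr3, a scavenging receptor for the chemokine CXCL12, read 4.34, 4.13, 4.54, 5.07 and 4.20 in untreated and 7.47, 7.15, 7.81, 7.52 and 8.03 in treated arrays (3.14, SE 0.19, limma adjusted p = 4.5e-06). The groups were far apart. Ackr3 was the 1 called gene among 28 endothelial genes (median 0.07; 1 fell too without untreated arrays 3 and 4), whose markers Stab2 and Clec4g read 8.49 to 9.06 and 10.59 to 11.05 in untreated and 8.85 to 9.10 and 10.70 to 11.13 in treated arrays. Hao2, a peroxisomal hydroxy acid oxidase, read 5.80, 5.62, 6.03, 5.76 and 6.16 in untreated and 9.49, 9.53, 9.62, 8.62 and 7.81 in treated arrays (3.14, SE 0.30, adjusted p = 0.000184). Treated arrays 4 and 5 were lower than the other treated ones and still above all untreated arrays.

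Serpinb1a, an inhibitor of neutrophil proteases, read 9.98, 9.24, 8.33, 7.35 and 9.65 in untreated and 12.08, 11.86, 11.67, 11.79 and 11.59 in treated arrays (2.89, SE 0.39, limma adjusted p = 0.00349; 2.18 without untreated arrays 3 and 4). Cnmd, encoding the cartilage protein chondromodulin, read 7.81, 7.63, 6.90, 5.55 and 7.95 in untreated and 9.63, 9.75, 9.54, 9.41 and 9.29 in treated arrays (2.35, SE 0.36, adjusted p = 0.00876; 1.72 without untreated arrays 3 and 4). For both genes, untreated arrays 3 and 4 were the lowest. Meig1, known for its part in sperm formation, rose from 3.55 to 4.49 in untreated to 6.18 to 6.90 in treated arrays (2.67, SE 0.18, adjusted p = 1.44e-05). Gna14, a G protein subunit, rose by 2.29 (SE 0.21, adjusted p = 0.000184), from 5.28 to 6.34 to 7.55 to 8.25. Prss8, the membrane protease prostasin, rose by 2.06 (SE 0.18, adjusted p = 9.35e-05). The rule for named genes did not give Prss8, Cyp2c54, Cyp2c50, Cyp3a13, Gstm4, Gstm6, Gstt1, Slc22a26, Slc22a29, Srxn1, C8a, C9, Rsph4a, Aox1 or Aox3, which were chosen after their values were seen.

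Genes that differ between the sexes moved towards the female pattern in part. In mice, the pulsed growth hormone of males and the steadier one of females set these genes through STAT5. Of 29 female-biased genes, 9 rose and 1 fell (1.18% of all genes passed in either direction; median 0.39). The 9 were Sult3a1, Cyp2b13, Cyp2b9, Hao2, Slc22a27, Gstt3, Slc22a26, Cyp2g1 and Sult1e1, of which 8 are drug-metabolising or transport genes already described. Cyp2b13 and Cyp2b9 also stand in the list of CAR and PXR targets, so the same rises count in both lists. The female-biased and male-biased lists were drawn up with results of these data known, so their direction is not independent evidence. The 1 that fell was Ttc39c (−0.95, SE 0.16, limma adjusted p = 0.0134). The 19 others had differences between −0.81 and 1.36. Of 28 male-biased genes, none rose and 7 fell (median −0.61), and 24 lay below 0. The 7 were Serpina4-ps1, Hsd17b6, Cyp2u1, Dpy19l3 and the complement genes C6, C8a and C8b. Without untreated arrays 3 and 4, 9 of the male-biased genes fell (median −0.71), and 11 of the female-biased genes rose and 1 fell (median 0.69).

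Serpina4-ps1, a serpin pseudogene, fell most among the genes past the test. It read 10.57, 9.98, 8.08, 8.29 and 8.55 in untreated and 5.68, 5.87, 5.29, 7.75 and 6.88 in treated arrays. Both groups were spread widely and came close at untreated array 3 and treated array 4. The difference of −2.80 (SE 0.54, limma adjusted p = 0.03) lost the test without untreated array 1 or 2 or treated array 1, 2 or 3 (highest adjusted p = 0.0869). Of its 3 probe sets only the chosen one passed, the others giving −2.32 (adjusted p = 0.116) and −3.28 (adjusted p = 0.0562). The mean of its probe sets was not past the test. Hsd3b5, a male-specific steroid reductase, had the largest drop in value but was not past the test (−3.32, SE 0.92, adjusted p = 0.142). It read 12.29, 12.48, 9.37, 10.86 and 11.70 in untreated and 7.12, 9.99, 4.49, 9.35 and 9.19 in treated arrays, so that treated array 2 lay above untreated array 3. Slco1a1, a male-biased uptake transporter, read 11.41, 11.61, 10.81, 10.40 and 11.30 in untreated and 7.68, 9.58, 7.56, 9.18 and 10.45 in treated arrays. Treated array 5 reached into the untreated range, and the gene was not past the test (−2.22, SE 0.48, adjusted p = 0.0542). It passed without that array (adjusted p = 0.0154) and without no other single array (highest adjusted p = 0.129). For Hsd3b5 and Slco1a1 alike, treated arrays 1 and 3 were the lowest.

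Of 24 genes of the growth hormone and STAT5 axis, 3 fell and none rose (median −0.18; 4 fell and 1 rose, with a median of −0.11, without untreated arrays 3 and 4). Socs2, a STAT5 target that damps growth hormone signalling, read 8.96, 8.89, 8.49, 9.29 and 8.38 in untreated and 7.12, 6.69, 6.68, 7.36 and 6.63 in treated arrays. The groups were well apart (−1.91, SE 0.19, limma adjusted p = 0.00024). Among its 6 probe sets, the others that passed gave −2.20 and −0.49. Those that did not pass gave −0.285, 0.125 and 0.214. Igf1, the growth factor that liver releases in response to growth hormone, read 12.79 to 13.22 in untreated and 12.44 to 12.58 in treated arrays (−0.45, SE 0.09, adjusted p = 0.0323). All 4 of its probe sets passed, with differences between −0.45 and −0.65, although the chosen one lost the test without 7 of the 10 arrays in turn (highest adjusted p = 0.0913) and without untreated arrays 3 and 4 (adjusted p = 0.0673).

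Egfr, the receptor whose signalling phenobarbital is known to block, was itself lower. It read 11.89, 12.15, 10.93, 11.75 and 11.80 in untreated and 9.38, 10.88, 9.28, 10.16 and 9.95 in treated arrays 1 to 5. Untreated array 3 and treated array 2 nearly met (−1.78, SE 0.29, limma adjusted p = 0.0113). Of its 7 probe sets, 2 passed, the other with −0.83, and a further one just missed (−1.54, adjusted p = 0.0524). The mean of all its probe sets was not past the test (−0.63, adjusted p = 0.0787).

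Further falls came from genes of varied function. Enho, which encodes the secreted peptide adropin, read 7.71, 7.81, 7.64, 9.74 and 7.69 in untreated and 5.85, 6.18, 6.47, 6.16 and 6.08 in treated arrays. Untreated array 4 stood far above the rest, and the groups were apart without it too (−1.97, SE 0.34, limma adjusted p = 0.0163; 0.0551 without treated array 1). Scara5, a ferritin receptor, read 7.61, 8.05, 6.89, 8.65 and 7.14 in untreated and 5.51, 5.78, 5.74, 6.01 and 5.99 in treated arrays (−1.86, SE 0.27, adjusted p = 0.00535). Its other probe set, dimmer at a mean of 4.62 in untreated arrays, did not fall (0.25, adjusted p = 0.281). Mpp4 fell by 1.20 (SE 0.11, adjusted p = 0.000158), Nrep by 1.19, Neb, the gene of the muscle protein nebulin, by 1.01, and Tbc1d4, a regulator of glucose transporter traffic, by 1.01. Foxa3, a transcription factor of hepatocytes, fell by 1.03 (adjusted p = 0.0268), a call lost without untreated array 1 or any single treated array (highest adjusted p = 0.0709). Fam25c fell by 0.97 and Tgm1, a transglutaminase, by 0.93, with adjusted p of 0.00105 and 0.00529. Plce1, a phospholipase C, fell by 0.92 (adjusted p = 0.0191), a call lost without treated array 2 or 3 (highest adjusted p = 0.0552) and without untreated arrays 3 and 4 (adjusted p = 0.0672).

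Lower values were found for 4 genes of the membrane attack complex of complement, which pierces microbes: C6, C8a, C8b and C9. They were no list of their own, and 2 further genes of the complex did not pass, C8g (−0.025, limma adjusted p = 0.916) and Hc, which encodes C5 (−0.27, adjusted p = 0.292). C8b read 11.15, 11.22, 10.98, 11.32 and 10.76 in untreated and 10.12, 10.32, 9.999, 10.37 and 10.38 in treated arrays (−0.85, SE 0.12, limma adjusted p = 0.00381). The groups did not overlap, and the same held for its neighbour C8a (−0.75, adjusted p = 0.00273), for C9 (−0.68, adjusted p = 0.00749) and for C6 (−0.80, adjusted p = 0.0189). The call of C6 was lost without treated array 1 or 3 (highest adjusted p = 0.0549). C6, C8a and C8b stand in the list of male-biased genes, and C9 does not. Ugt2b38, C8g and Hc were also chosen after their values were seen.

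**Figure D3:**
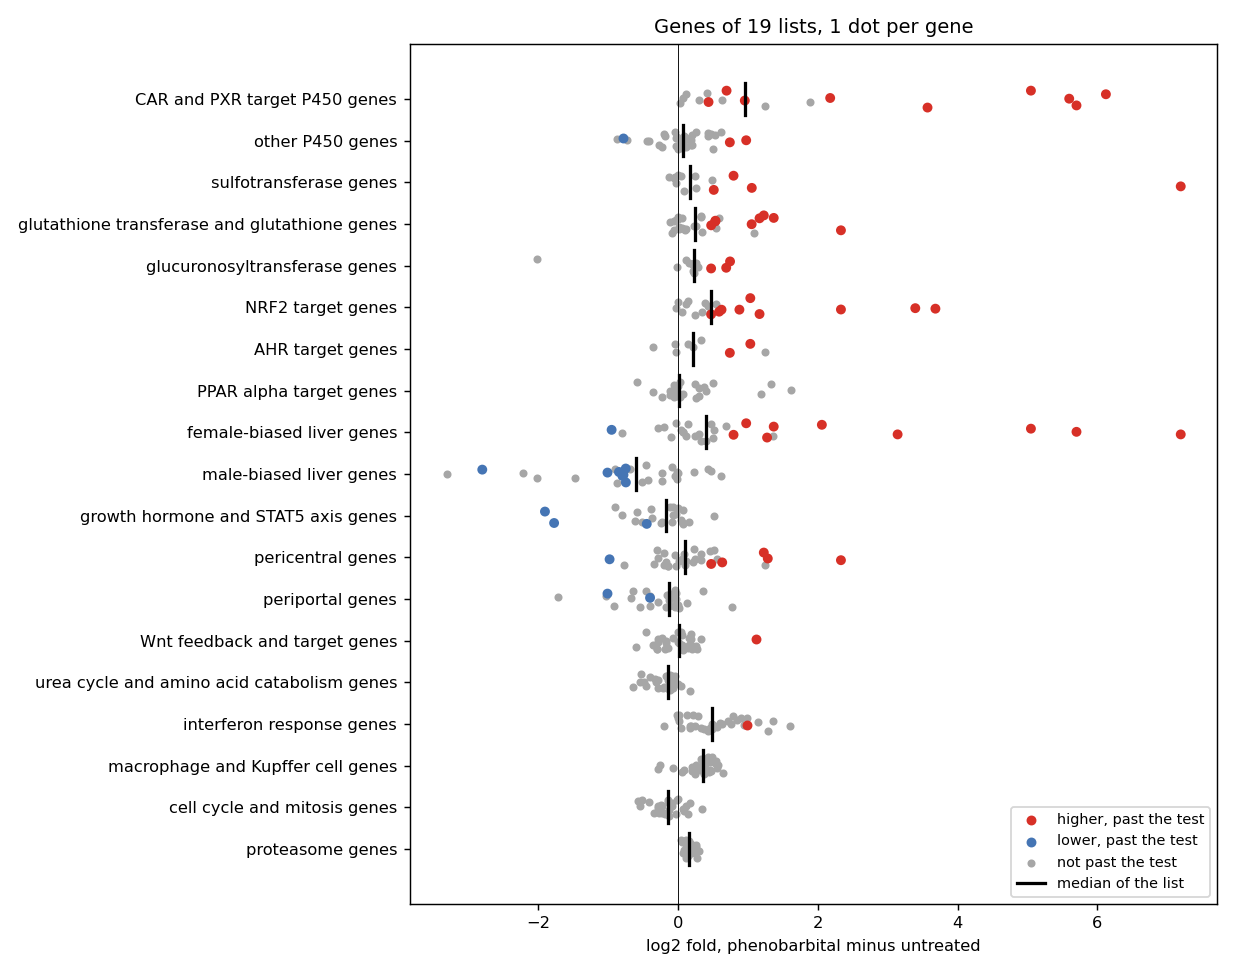
Log2 fold (phenobarbital minus untreated, x axis) of every measured gene in 19 lists, 1 dot per gene, with genes past the test in colour and the median of each list as a black line. The CAR and PXR target P450 genes have a median of 0.95, and the male-biased genes a median of −0.61.

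Zonation, the division of labour between hepatocytes near the portal vein and near the central vein, depends on Wnt signalling and so bears on a liver with an APCko allele. Of 31 pericentral genes, 5 rose and 1 fell, with a median of 0.10 (5 rose, none fell and the median was −0.06 without untreated arrays 3 and 4). The 5 were Gstm3, Gstm2, Gstm6, Ahr and Rhbg, and 3 of them are the glutathione transferases above. Rhbg, an ammonium transporter, read 8.17, 8.22, 6.92, 7.65 and 7.95 in untreated and 9.13, 9.08, 9.03, 9.27 and 8.81 in treated arrays (1.28, SE 0.21, limma adjusted p = 0.0111). Its groups did not overlap. Cyp2e1, a pericentral P450 that oxidises alcohol, read 14.16 to 14.54 and 14.42 to 14.55 (0.11, adjusted p = 0.686; −0.03 without untreated arrays 3 and 4). Glul, the defining pericentral gene, read 13.26, 13.37, 12.39, 12.25 and 13.13 in untreated and 12.97 to 13.23 in treated arrays (0.21, adjusted p = 0.725; −0.17 without untreated arrays 3 and 4). Csad, which makes the taurine precursor hypotaurine, fell by 0.98 (adjusted p = 0.0386), a call lost without 7 of the 10 arrays in turn and without untreated arrays 3 and 4 (adjusted p = 0.122).

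Of 31 Wnt feedback and target genes, 1 passed, Tnfrsf19 (1.11, SE 0.20, limma adjusted p = 0.0244), a receptor of the tumour necrosis factor family, and the median was 0.01. When untreated arrays 3 and 4 were left out, 2 genes of the list passed as lower, the Wnt inhibitor Notum and the ligand Wnt2, beside Tnfrsf19, and the median was −0.025. The Tnfrsf19 call was lost without 7 of the 10 arrays in turn (highest adjusted p = 0.0732). Axin2, the standard readout of Wnt signalling, read 6.65 to 7.40 in untreated and 6.61 to 6.97 in treated arrays (−0.30, adjusted p = 0.361). Lgr5, a receptor that amplifies Wnt signals, did not pass (−0.30, adjusted p = 0.664; −0.74, adjusted p = 0.0501, without untreated arrays 3 and 4). Of 29 periportal genes, 2 fell, Hsd17b6 and Rnase4 (−0.40, adjusted p = 0.0455), with a median of −0.14 (Rnase4 fell, Ctsc rose and the median was −0.08 without untreated arrays 3 and 4). Rnase4 lost the test without 9 of the 10 arrays in turn (highest adjusted p = 0.116).

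Few genes of liver metabolism outside drug handling passed. None of 32 urea cycle and amino acid genes did (limma; 14 had an unadjusted p under 0.05), yet 30 of them lay below 0, with a median of −0.14 and differences from −0.64 to 0.16. None of 26 hepatocyte secretory and identity genes passed (6 had an unadjusted p under 0.05), and 24 lay below 0 (median −0.08). Of 33 lipogenesis genes, Cd36 and Mogat1 rose (median 0.17), and Pnpla3 and Lpin1 passed as higher too without untreated arrays 3 and 4 (median 0.31). Cd36, a fatty acid transporter, went from 9.71 to 10.51 in untreated to 11.02 to 11.49 in treated arrays (1.07, SE 0.14, adjusted p = 0.00238), and its 3 probe sets gave 0.99 to 1.07. Mogat1, which makes diacylglycerol, read 7.69, 7.53, 7.05, 5.34 and 7.33 in untreated and 8.47 to 9.47 in treated arrays (1.94, adjusted p = 0.03). Untreated array 4 was far below the rest, and the call was lost without untreated array 3 or treated array 1, 2, 3 or 4 (highest adjusted p = 0.0846). Pck1, the control enzyme of gluconeogenesis, was not past the test (−0.92, adjusted p = 0.0913), with 12.32 to 12.71 in untreated and 10.86 to 12.41 in treated arrays.

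Of 29 acute phase genes, Orm3, an orosomucoid, rose from 5.42 to 6.42 in untreated to 7.90 to 8.25 in treated arrays (2.06, SE 0.17, limma adjusted p = 6.63e-05), and Itih3, an inter-alpha inhibitor heavy chain, fell by 0.60 (adjusted p = 0.00889). The median of the list was −0.08. Of 18 p53 targets, Ccng1, a cyclin, rose by 0.45 (adjusted p = 0.0238). Of 28 endoplasmic reticulum and integrated stress genes, Atf5 fell by 0.51 (adjusted p = 0.0408). Both these calls were lost without untreated arrays 3 and 4 (adjusted p = 0.0793 and 0.121), and without 6 and 9 of the 10 arrays in turn. All 26 proteasome genes lay above 0, with a median of 0.16 and a range of 0.04 to 0.30. In 14 of them the groups did not overlap, against 2.39% of all genes in that direction, and none passed the test (limma; 13 had an unadjusted p under 0.05).

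No gene of the proliferation lists passed the test after 9 months when all arrays were kept. Without untreated arrays 3 and 4, Mcm6 passed as higher among DNA replication genes, and Cdkn2c among G1 and growth control genes. Of 29 cell cycle and mitosis genes, 2 had an unadjusted p under 0.05 in limma, and the median turned from −0.15 to 0.12 without untreated arrays 3 and 4. Mki67 read 5.04, 5.37, 6.98, 6.86 and 5.38 in untreated and 5.69, 5.55, 6.27, 5.23 and 5.47 in treated arrays (−0.29, limma adjusted p = 0.801; 0.38 without untreated arrays 3 and 4). Ccnd1, the cyclin that starts the cell cycle, read 8.20, 7.87, 9.22, 10.12 and 8.20 in untreated and 7.77 to 8.31 in treated arrays (−0.61, adjusted p = 0.512; 0.02 without untreated arrays 3 and 4). In both genes the 2 highest values were untreated arrays 3 and 4. Gadd45b, a stress gene known to respond to CAR activators, read 6.42 to 7.11 in untreated and 7.24 to 8.34 in treated arrays. It did not overlap but was not past the test (0.91, SE 0.21, adjusted p = 0.0682). It passed without treated array 4 (adjusted p = 0.0268) and without no other single array (highest adjusted p = 0.16).

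Genes of the interferon response read higher in most treated arrays. Of 35, 32 lay above 0 with a median of 0.49, and 1 passed, Ifi27l2a (0.98, SE 0.18, limma adjusted p = 0.0236), lost without untreated array 4 or treated array 1, 2 or 5 (highest adjusted p = 0.0732). Taking each gene's deviation from its median over the 10 arrays, the median of the list was −0.44, −0.34, −0.32, 0.22 and −0.38 in untreated and 0.43, 0.53, −0.18, 0.18 and 0.35 in treated arrays. Untreated array 4 lay among the treated arrays and treated array 3 close to the untreated ones. Of the 35, 20 had an unadjusted p under 0.05. Without untreated arrays 3 and 4, 6 of the 35 genes passed and the median was 0.69. The medians of macrophage and Kupffer cell genes were −0.01, −0.62, −0.08, 0.16 and −0.61 in untreated and 0.06, 0.23, 0.31, 0.01 and −0.03 in treated arrays. Of its 30 genes 27 lay above 0 (median 0.36) and none passed the test (limma; 11 had an unadjusted p under 0.05; 1 passed and the median was 0.56 without untreated arrays 3 and 4). Clec4f, the defining Kupffer cell receptor, read 8.85 to 9.66 in untreated and 9.59 to 9.77 in treated arrays. Adgre1, the F4/80 antigen of macrophages, read 7.32 to 8.40 in untreated and 8.34 to 8.79 in treated arrays (0.57, adjusted p = 0.239). The part of macrophage RNA in the interferon values was not tested.

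Few genes of other cell types passed. In limma none passed for B and plasma cells (5 with an unadjusted p under 0.05), neutrophils and mast cells (0), stellate cells and matrix (3), cholangiocytes (1) or fat (4). The median of the stellate cell and matrix genes went from 0.02 to 0.36 without untreated arrays 3 and 4, and 1 fat gene passed as higher. Of 21 T and NK cell genes, Zap70, a T cell kinase, fell by 0.82 (SE 0.15, limma adjusted p = 0.0217), and another of its probe sets fell by 0.59. The median of that list was 0.01. Zap70 lost the test without untreated array 1 or 3 or treated array 1 or 3 (highest adjusted p = 0.0612) and without untreated arrays 3 and 4 (adjusted p = 0.0682). Pnliprp1, a lipase listed with the pancreas, rose from 4.71 to 5.49 to 6.03 to 6.47 (1.15, adjusted p = 0.00145), while Ctrb1, a defining pancreatic gene, read 5.49 to 5.81 in all arrays. The pancreas marker Cela1 read 9.225 to 10.755 in untreated and 9.511 to 9.809 in treated arrays. Tfrc, the transferrin receptor that brings iron into cells, rose by 0.76 (adjusted p = 0.0217). It lost the test without treated array 2, 3 or 4 (highest adjusted p = 0.066) and without untreated arrays 3 and 4 (adjusted p = 0.053). None of 22 clock genes passed in limma, and 2 had an unadjusted p under 0.05. Dbp, which cycles over the day, read 7.57, 10.41, 10.72, 6.78 and 10.35 in untreated and 10.82, 10.55, 10.29, 10.84 and 8.72 in treated arrays, low in untreated arrays 1 and 4 and treated array 5.

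**Figure D4:**
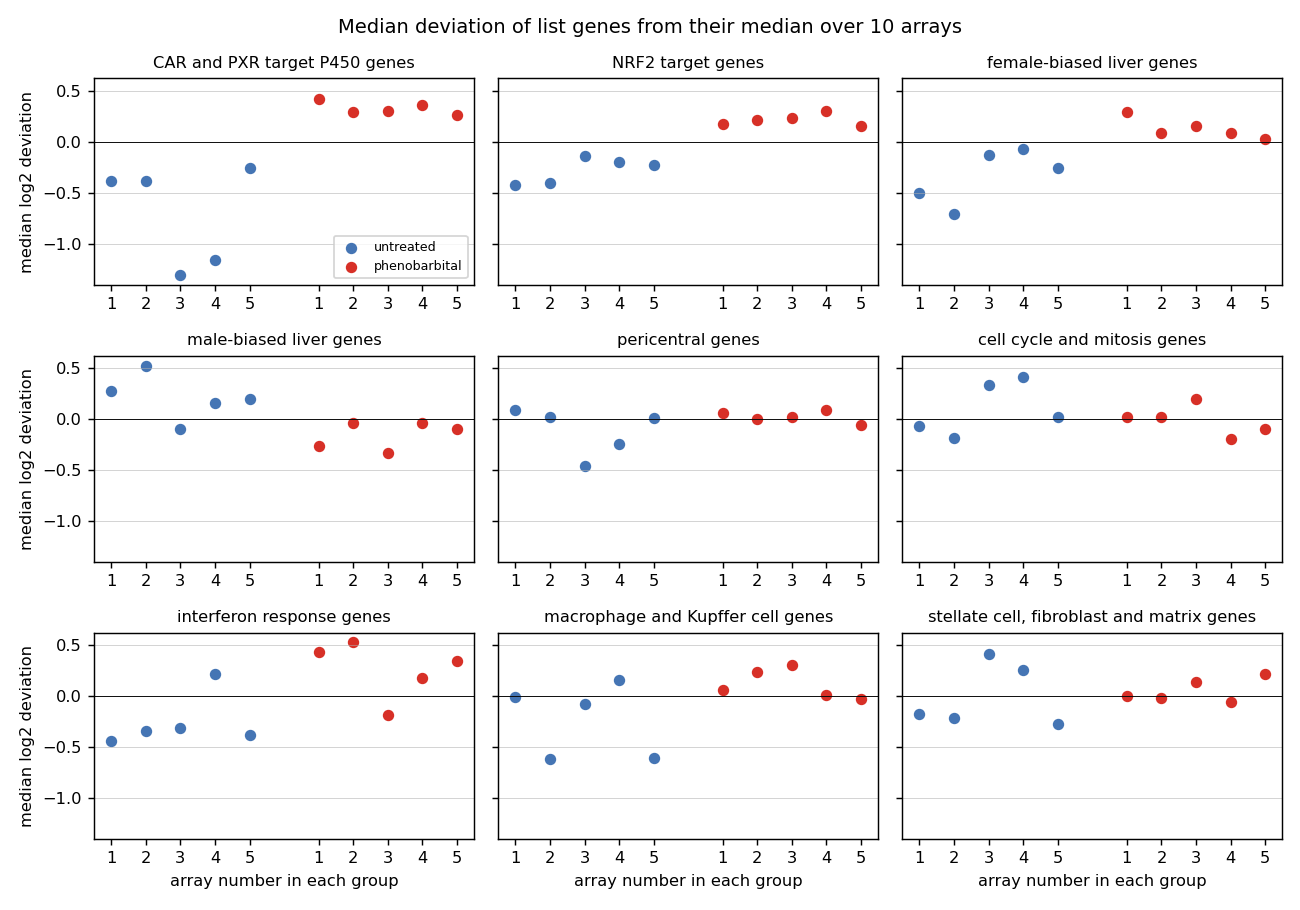
Median log2 deviation of the genes of 9 lists from their own median over the 10 arrays (y axis), 1 dot per array, numbered within each group (x axis). Untreated arrays 3 and 4 lie at −1.31 and −1.16 for the CAR and PXR target P450 genes and at 0.34 and 0.41 for cell cycle genes.

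In the imprinted Dlk1-Dio3 region, whose maternal RNAs are known to rise in mouse liver on phenobarbital, none of 5 genes passed in limma and 1 had an unadjusted p under 0.05. That was Meg3, a long noncoding RNA, which read 7.95, 8.95, 6.29, 6.64 and 7.09 in untreated and 9.98, 9.83, 8.56, 9.52 and 9.05 in treated arrays. Untreated array 2 lay above treated array 3, and the gene was not past the test (2.003, SE 0.44, limma adjusted p = 0.0569). It passed without that untreated array (adjusted p = 0.00795) and without no other single array (highest adjusted p = 0.151). Of its 11 probe sets, 1 other passed (1.03, adjusted p = 0.0354), and the differences ranged from 0.02 to 2.06. Rian (0.30, adjusted p = 0.43), Mirg (0.24, adjusted p = 0.417) and Dlk1 (−0.07, adjusted p = 0.773) did not pass.

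Spread was wider in the untreated group, and its arrays 3 and 4 added to it for some genes. The median SD of a gene over 5 arrays was 0.166 in untreated and 0.139 in treated liver, and the SD was larger in untreated liver for 63.5% of all genes. Among genes that rose the share was 75.0% (117 of 156), and among genes that fell it was 66.1% (39 of 59). Over untreated arrays 1, 2 and 5 alone, a comparison added after the data were seen, the median SD was 0.134, and these shares were 48.3% of all genes, 57.7% of genes that rose and 50.8% of genes that fell. An SD over 3 arrays is not on the same footing as one over 5, and arrays 3 and 4 were set apart from these same data. How much of the wider spread rests on those arrays was therefore not tested. Cyp2b10 had an SD of 1.28 in untreated (1.02 over arrays 1, 2 and 5) and 0.09 in treated liver. Cyp2c54 had 1.09 and 0.06, and Cyp2c50 0.54 and 0.045, but over untreated arrays 1, 2 and 5 their SDs were 0.06 and 0.016. The treated values of both lie near the highest value of the arrays, 15.09, and whether saturation narrows them was not tested. Sult3a1 went the other way, with 0.45 and 0.73, as did Hao2 with 0.22 and 0.78. These spreads are described without a test.

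**Figure D5:**
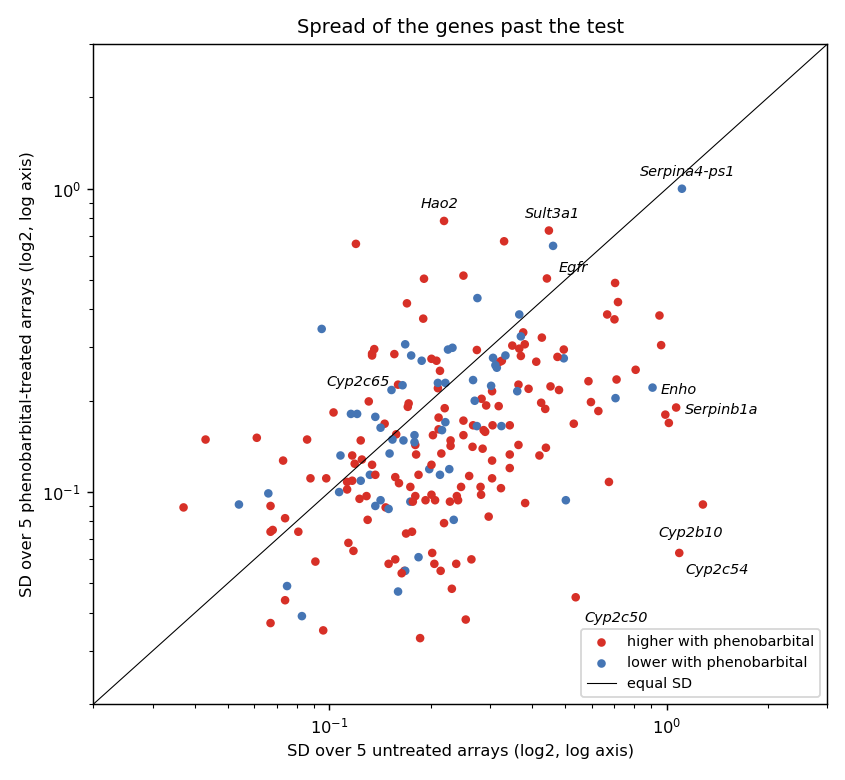
SD over 5 phenobarbital-treated arrays (y axis, log scale) against SD over 5 untreated arrays (x axis, log scale) for the 215 genes past the test, rises in red and falls in blue. Most points lie below the line of equal SD, with Cyp2b10 at 1.28 and 0.09. How far this rests on untreated arrays 3 and 4 was not tested.

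At the level of probe sets, 324 of 34945 (0.927%) passed, 228 higher (0.652%) and 96 lower (0.275%). Of the 215 called genes, 89 had several probe sets. For 36 of these another probe set passed in the same direction, for 1 in the opposite direction and for 52 no other passed. A further 57 genes were not called while another of their probe sets was. Of 10092 probe sets without a single symbol, 21 passed, 13 higher and 8 lower.

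In the 5 adenomas of the series, grown on the same diet, Sult3a1 read 3.60 to 5.87, against 9.90 to 11.88 in treated non-tumour liver, and Cyp2c65 read 3.67 to 9.30. Cyp2b10 read 8.21 to 13.43. Abcc4 read 10.99 to 13.99 in adenomas, above the 9.95 to 10.50 of treated non-tumour liver. These tumour values are given as levels with no test.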

How the data were processed

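Per the labels' protocols, liver RNA was extracted with Trizol and labelled with a 3'IVT kit before hybridisation to Affymetrix arrays. The authors deposited log2 expression values made with RMA, per the submitters' processing notes; the version, software and annotation are not given in the sources used here. Array number (5 per group) limits the precision. Of 45037 probe sets, 34945 carried 1 gene symbol, 932 several and 9160 none. limma 3.58.1 (R 4.3.3; lmFit, eBayes) was fitted to the 10 arrays over all 34945, with Benjamini-Hochberg adjustment and a threshold of 0.05. A gene took its probe set with the highest mean, leaving out those ending in _x_at where another existed. On data simulated with independent normal noise and equal SD in both groups, the fit recovered 97% of probe sets changed by log2 1. The real arrays have unequal SDs and a shared shift in untreated arrays 3 and 4, so that share does not give the sensitivity here. The genes named comprise, among those past the test whose arrays did not overlap, the top 15 in each direction, together with up to 4 called members per list and direction, and a fixed panel. Members, lists and rules were chosen with earlier results of these data known. Alternatives covered the fit, filters, normalization and arrays left out. The panel genes Cyp2a5, Por, Gsta1, Ugt1a1 and Mup1 were not analysed here. Tables were made with Python 3.11.15 and pandas 2.3.3.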

Additional observations from a re-analysis of the deposited data

Results flagged for a closer look

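Among 208 groups of 5 arrays (104 named genes), 14 (6.73%) held a single array set apart from the other 4 by Dixon's test, and chance gives about 1 in 20 groups. In treated liver, Cyp2b10 read 13.33 in array 3 against 13.11 to 13.15 in the others, and Nr1i3 read 9.997 in array 1 against 9.48 to 9.57. Treated array 5 was low for Gstm1 (13.71 against 13.89 to 13.94), Gstm4 (10.82 against 11.004 to 11.06) and the clock gene Dbp (8.72 against 10.29 to 10.84). In untreated liver, array 4 was high for Enho (9.74 against 7.64 to 7.81) and Itih3 (13.21 against 12.79 to 12.85) and low for Mogat1 (5.34 against 7.05 to 7.69). Untreated array 3 was high for Gstm4 (10.29 against 9.80 to 9.89) and Nr1i2 (8.71 against 8.08 to 8.26) and low for Rnase4 (13.39 against 13.63 to 13.69). Untreated array 5 was high for Cyp2g1 (6.05 against 5.378 to 5.504) and low for Gadd45b (6.42 against 7.03 to 7.11). Untreated array 1 was low for Ugdh (12.26 against 12.47 to 12.55).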

How the results depend on the processing

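Of 83 named genes past the test, none changed sign in the 21 settings tried, and 47 stayed past it in every setting except the fit of all 20 arrays, in which 58 were not past it. That fit called 36 genes and 59 probe sets. With the mean of the probe sets of a gene, 6 of the 83 were not past the test: Serpina4-ps1, Egfr, Sult1d1, Hsd17b6, Ccng1 and Tfrc. A filter on dim probe sets gave 363 and 514, and trend and robust settings 351 and 513. Leaving out single arrays gave 111 to 197 genes and 164 to 293 probe sets. Without untreated arrays 3 and 4 the differences turned to −0.22 for Nr1i3, −0.17 for Glul, −0.034 for Cyp2e1, 0.38 for Mki67 and 0.023 for Ccnd1, and without untreated array 4 to −0.006 for Nr1i3. The cause was not tested. Genes with dim probe sets have compressed differences on this scale.

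With the replicate number as a block, 133 genes and 206 probe sets were called. Whether the numbers pair the samples is not stated in the labels. Deviations of same-numbered arrays correlated between −0.113 and 0.066, which does not settle it.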
